A study of Populus deltoides x Populus x canadensis with 6 samples.

Results

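Phenylalanine ammonia-lyase (PAL) removes the amino group of phenylalanine to give trans-cinnamic acid, the entry step of the phenylpropanoid pathway. That pathway supplies the monolignols of lignin, and also flavonoids, condensed tannins and other phenolics, so in a woody stem much of its carbon ends in the lignified walls of the xylem. PAL is encoded by a small gene family, and in Populus trichocarpa PtrPAL1 and PtrPAL3 are placed in one subfamily and PtrPAL2, PtrPAL4 and PtrPAL5 in the other. The 5 genes PtrPAL1 to PtrPAL5 were followed here in the stem of hybrid poplar. They were taken by their identifiers from a table of 35792 genes, and all 5 were found and all 5 passed the filter on low counts that left 27382 genes for testing.

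The mutant group carries the genotype pdbri1-1;2;3;6, and the wild type group is the same clone without it. BRI1 is a receptor kinase at the cell surface that binds brassinosteroids, plant steroid hormones that promote growth and vascular differentiation, and the genotype label lists 4 members of that family. Both groups are of the clone Nanlin 895, a hybrid of Populus deltoides and Populus x canadensis. They were sampled at 45 days from greenhouse plants kept under 16 h of light and 8 h of dark, and each library was made from the basal 2 cm of stem of 30 pooled plants with the leaves taken off. There were 3 such pools of the mutant and 3 of the wild type, described as biological replicates. The p-values rest on the spread between pools, not between plants, and that spread was small. The edgeR fit estimates the spread of each gene partly from other genes. The small p-values therefore do not rest on the 3 pools per genotype of that gene alone. In the edgeR fit the common coefficient of variation between pools, beyond counting noise, was 3.90%. The estimates by gene were 3.37% for PtrPAL2, 3.23% for PtrPAL3, 3.45% for PtrPAL4, 7.21% for PtrPAL1 and 5.38% for PtrPAL5. These too are drawn towards other genes, and the F test used a separate estimate of the spread. How the mutations were made, and whether the mutant is 1 line or several, is not given in the sources used here. Total counts were 17752822 to 21096052 per library. The table holds identifiers without gene names, and no reference of gene descriptions was used. For this reason the BRI1 transcripts, the markers of xylem and phloem and the other enzymes of the pathway were not analysed here. The genotype and tissue labels were therefore not checked against such genes.

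The family split into a part that was lower in the mutant and a part with no detected change. PtrPAL2 fell by 25.6%, PtrPAL3 fell by 24% and PtrPAL4 fell by 23.5% (TMM-scaled counts, edgeR). PtrPAL1, by far the most abundant member, and PtrPAL5, the least abundant, had no call. The split ran across both subfamilies, since each held a member with no call beside at least 1 that fell. Counted over the family, 3 of 5 members were called lower and 0 were called higher at an adjusted p under 0.05 (quasi-likelihood F test of edgeR, adjusted over all tested genes by the Benjamini-Hochberg method). In the same fit 64.1% of all tested genes were called, 31.0% as lower and 33.1% as higher in the mutant. A count of 3 calls among 5 genes is thus close to the share of calls over the table. The median log2 fold change was -0.39 over the 5 members, which is the value of PtrPAL4, and 0.01 over all tested genes. Since PtrPAL1 and PtrPAL5 had no call, that median does not describe a shift of the whole family.

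Levels are given first as the authors' FPKM, counts scaled by gene length and by the library total, which can be set side by side between genes. The 5 members spanned a wide range. In the mutant the mean levels were 366.0 FPKM for PtrPAL1, 108.0 for PtrPAL3, 26.9 for PtrPAL2, 12.5 for PtrPAL4 and 4.67 for PtrPAL5, and in the wild type they were 339.6, 130.5, 33.2, 15.01 and 4.37 FPKM in the same order. The order was the same in every library of both genotypes. Each member stood above the next by a factor that was never close to 1, the nearest neighbours being PtrPAL2 and PtrPAL4, at a ratio of 2.02 to 2.22 in mutant libraries and 2.17 to 2.25 in wild type libraries. PtrPAL1 ranked 132nd of all 35792 genes by mean FPKM in the mutant and 152nd in the wild type, and PtrPAL3 ranked 843rd in the mutant and 594th in the wild type. PtrPAL5 lay below the median of the tested genes in both, with 33.3% of tested genes at a lower level in the mutant and 36.4% in the wild type.

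PtrPAL1 (Potri.006G126800.v4.1, chromosome 6 by its identifier, 3027 bp) had 395.5, 323.6 and 378.9 FPKM in the mutant libraries, against 327.1, 342.3 and 349.4 FPKM in the wild type libraries. The groups overlapped, since mutant replicate 2 lay below all 3 wild type libraries while the other two mutant libraries lay above them. The log2 fold change of PtrPAL1 was -0.01 ± 0.08 (SE; adjusted p = 0.895, edgeR), with a 95% interval of -0.24 to 0.21, and its sign was positive, at 0.11, when libraries were scaled by their totals only. In this fit the interval runs between 0.847 and 1.16 times the wild type level. Its width depended on the setting and on 1 library: the SE of PtrPAL1 was 0.043 without robust estimation, 0.041 with limma-voom, and 0.033 without mutant replicate 2 (log2 fold change 0.06, adjusted p = 0.103, edgeR). PtrPAL1 alone held 70.5% ± 1.81 of the summed FPKM of the family in the mutant and 64.96% ± 0.40 in the wild type (SD, n = 3 each).

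PtrPAL3 (Potri.016G091100.v4.1, chromosome 16, 2899 bp), the subfamily partner of PtrPAL1, had 108.8, 102.2 and 113.0 FPKM in the mutant libraries, against 127.1, 131.1 and 133.4 FPKM in the wild type libraries. All 3 mutant libraries lay below all 3 wild type libraries. Its log2 fold change was -0.40 ± 0.03 (SE; adjusted p = 2.69e-14, edgeR), with a 95% interval of -0.47 to -0.33.

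**Figure D1:**
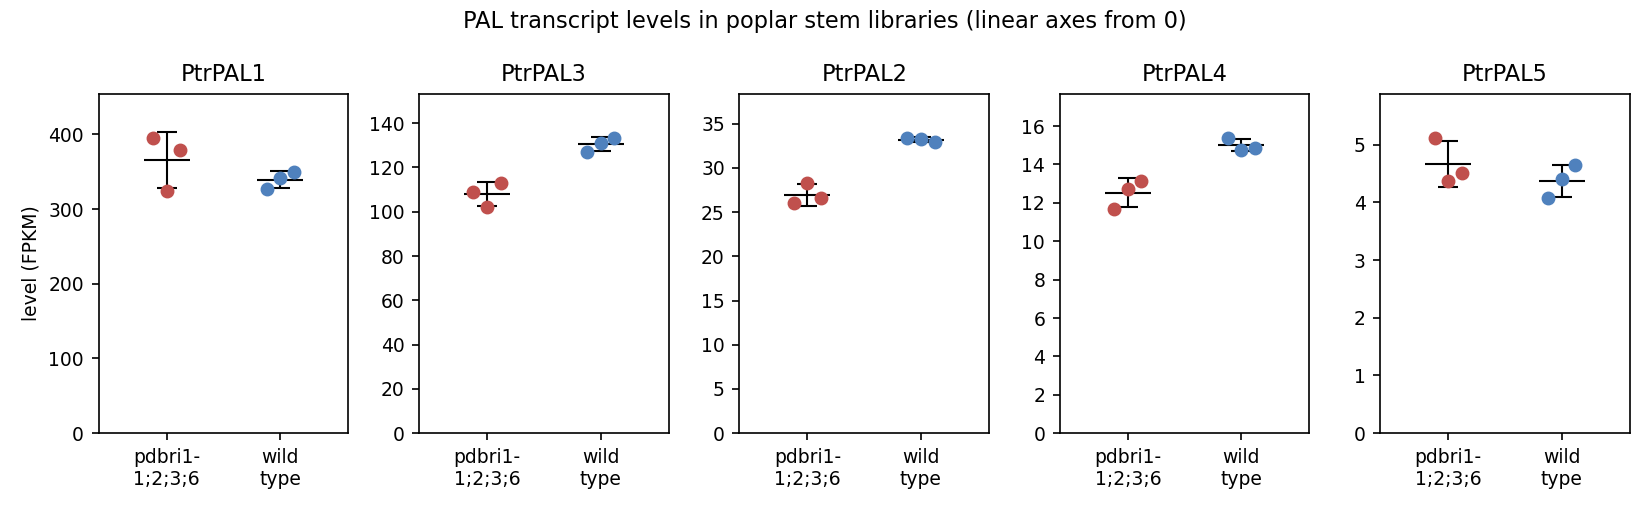
Level of each PAL gene in FPKM (vertical axes, linear and starting at 0, each with its own scale) in 3 mutant libraries (red, left) and 3 wild type libraries (blue, right), with the mean and SD as black bars. The groups do not overlap for PtrPAL3, PtrPAL2 and PtrPAL4, which are lower in the mutant, and they overlap for PtrPAL1 and PtrPAL5.

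PtrPAL2 (Potri.008G038200.v4.1, chromosome 8, 2732 bp) is the most abundant of the other subfamily. It had 25.99, 28.3 and 26.5 FPKM in the mutant libraries, against 33.4, 33.3 and 32.9 FPKM in the wild type libraries. The wild type libraries were almost level with each other and every mutant library lay below them. The log2 fold change of PtrPAL2 was -0.43 ± 0.04 (SE; adjusted p = 6.7e-12, edgeR), with a 95% interval of -0.51 to -0.34, the lowest estimate of the 5 members.

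PtrPAL4 and PtrPAL5 follow each other in the numbering of chromosome 10, with 0 other rows of the table between them. PtrPAL4 (Potri.010G224100.v4.1, 3051 bp) had 11.7, 12.7 and 13.1 FPKM in the mutant libraries, against 15.4, 14.8 and 14.9 FPKM in the wild type libraries. The groups did not overlap, and the log2 fold change was -0.39 ± 0.05 (SE; adjusted p = 2.21e-08, edgeR), with a 95% interval of -0.50 to -0.28.

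PtrPAL5 (Potri.010G224200.v4.1, 2514 bp) had 5.12, 4.37 and 4.51 FPKM in the mutant libraries, against 4.08, 4.40 and 4.64 FPKM in the wild type libraries. The groups overlapped. The log2 fold change of PtrPAL5 was -0.03 ± 0.10 (SE; adjusted p = 0.818, edgeR), with a 95% interval of -0.22 to 0.17, and it was 0.09 with library totals only. Its 195 to 267 counts per mutant library and 184 to 246 per wild type library gave a counting error of 6.69% and 6.76%, so a change of the size seen in its neighbour lay outside the interval but a smaller one could not be told from none. Reads from near-identical copies can be split between genes in ways that depend on the counting, and whether PtrPAL4 and PtrPAL5, or any other pair of members, shared reads was not tested, so the separate values of the members carry that uncertainty.

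The fold changes depended on scaling in size. A change of library factors moves all genes nearly alike, so it keeps the distances between genes by construction. The deposited FPKM rest on library totals, and the TMM factors used in the test were 1.04 to 1.05 for mutant and 0.957 to 0.960 for wild type libraries. The median log2 fold change over all tested genes was 0.01 with TMM factors and 0.13 with library totals. Measured from that median, PtrPAL2 stood at -0.43, PtrPAL3 at -0.40, PtrPAL4 at -0.39, PtrPAL1 at -0.02 and PtrPAL5 at -0.035 with either scaling. PtrPAL2, PtrPAL3 and PtrPAL4 stayed called and lower with library totals (log2 fold changes of -0.30, -0.27 and -0.26, with adjusted p = 6.8e-08, 2.28e-09 and 4.16e-05, edgeR).

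**Figure D2:**
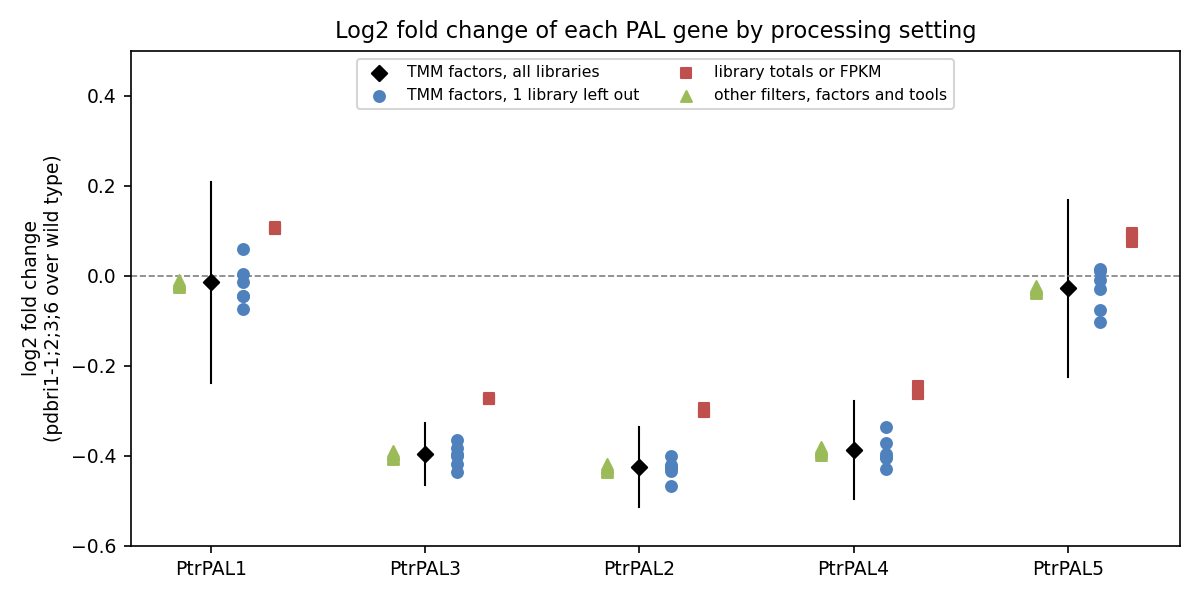
Log2 fold change, mutant over wild type (vertical axis), of each PAL gene under each processing setting. Black diamonds with 95% intervals are the reported values, and red squares are library totals or FPKM. PtrPAL3, PtrPAL2 and PtrPAL4 are below 0 in each setting drawn, while PtrPAL1 and PtrPAL5 lie on both sides of 0.

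The falls were moderate in size for these libraries. When the test asked for more than a 1.2-fold difference (glmTreat in edgeR, added after the data were seen), PtrPAL2, PtrPAL3 and PtrPAL4 were still called lower, with adjusted p = 0.000195, 0.000108 and 0.00953, and 39.4% of all tested genes were called in that way, 15.9% as lower. A log2 fold change as low as that of PtrPAL2 or lower was found for 15.4% of tested genes, and the shares were 16.7% for PtrPAL3 and 17.1% for PtrPAL4. Changes at least as large in either direction were found for 40.3%, 42.6% and 43.4% of tested genes, for PtrPAL2, PtrPAL3 and PtrPAL4 in turn. In deposited FPKM the genotypes did not overlap for 67.3% of tested genes, and for 22.6% all mutant libraries lay below all wild type libraries, as for these 3 members.

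**Figure D3:**
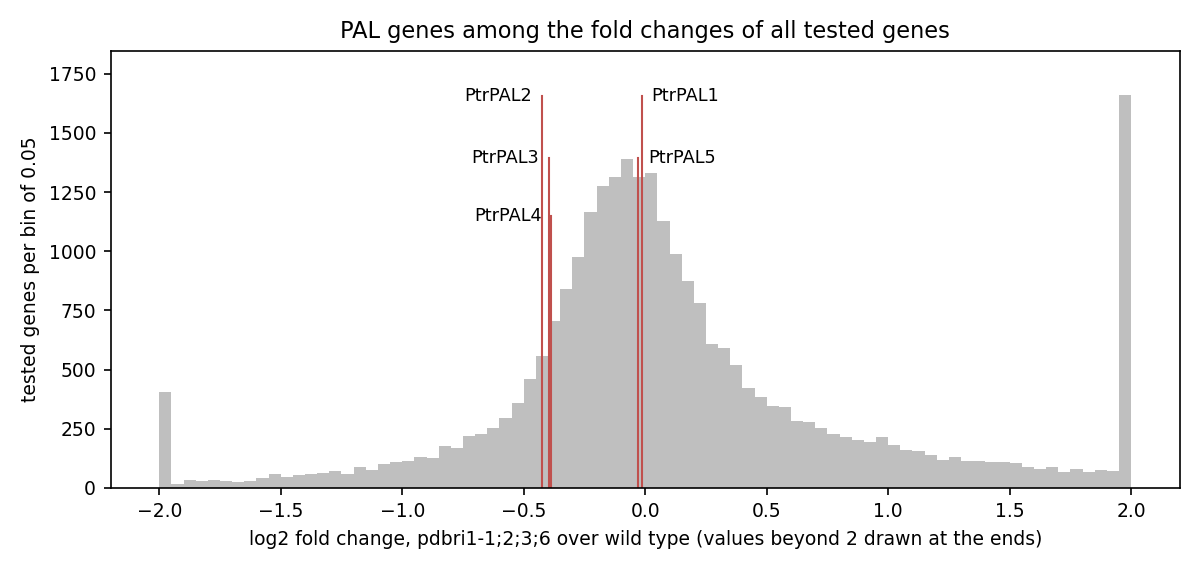
Histogram of the log2 fold change, mutant over wild type (horizontal axis), of the 27382 tested genes (vertical axis, genes per bin), with values beyond the axis drawn at its ends. Red lines mark the PAL genes: PtrPAL1 and PtrPAL5 at -0.01 and -0.03 lie in the centre, and PtrPAL2, PtrPAL3 and PtrPAL4 at -0.43, -0.40 and -0.39 lie on its left side.

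The makeup of the family was compared within each library, where the scaling of the library cancels. The PtrPAL1 to PtrPAL3 ratio of FPKM was 3.64, 3.17 and 3.35 in the mutant libraries and 2.57, 2.61 and 2.62 in the wild type libraries. Every mutant library lay above every wild type library, and the mean log2 ratio differed by 0.38, or 1.30-fold. The PtrPAL2 to PtrPAL5 ratio was 5.08, 6.47 and 5.89 in the mutant libraries and 8.20, 7.57 and 7.10 in the wild type libraries, again with no overlap. The neighbours PtrPAL4 and PtrPAL5 also parted, the PtrPAL5 to PtrPAL4 ratio being 0.438, 0.343 and 0.343 in the mutant libraries and 0.265, 0.298 and 0.312 in the wild type libraries. The PtrPAL2 to PtrPAL4 ratio was 2.22, 2.22 and 2.02 in the mutant libraries and 2.17, 2.25 and 2.21 in the wild type libraries, and these overlapped.

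Over all 10 pairs, the ratio did not overlap between genotypes for 6. These were the 6 pairs that join PtrPAL1 or PtrPAL5 to PtrPAL2, PtrPAL3 or PtrPAL4, and their mean log2 ratios differed by 0.36 to 0.41 between genotypes. The other 4 pairs overlapped and differed by at most 0.04. The exact permutation test over the 6 libraries (two-sided) gave p = 0.1 for each of the 6 pairs, the smallest this design allows, and 0.167 after adjustment over the 10 pairs, so no pair could pass the threshold. The pairs share members and are not independent of each other, and since these 6 are the pairs of a called with an uncalled member, they restate the calls of the single genes. Ratios without overlap were also common over the table. Against each of the 27064 other tested genes above 0 in all libraries, the ratio did not overlap for 53.4% with PtrPAL1, 53.7% with PtrPAL5, and 75.5% to 79.2% with PtrPAL2, PtrPAL3 and PtrPAL4.

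**Figure D4:**
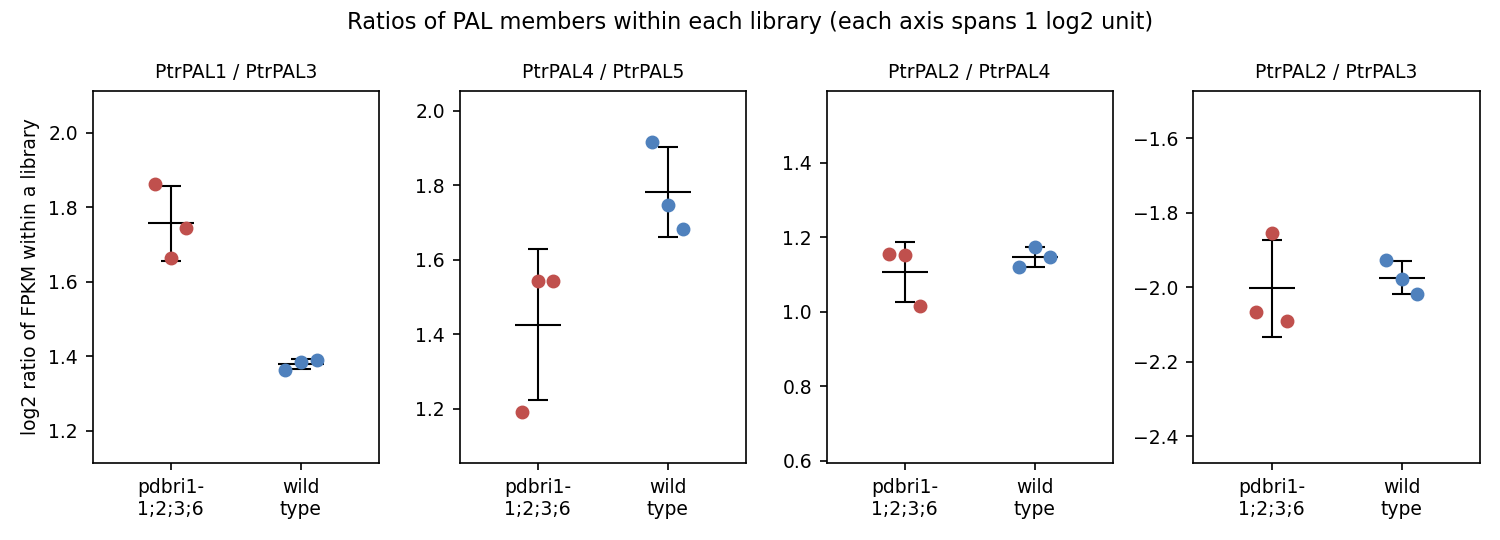
Log2 ratio of the FPKM of 2 PAL genes within each library (vertical axes, each spanning 1 log2 unit) for 4 pairs, in 3 mutant libraries (red, left) and 3 wild type libraries (blue, right), with the mean and SD in black. PtrPAL1 over PtrPAL3 is higher and PtrPAL4 over PtrPAL5 is lower in each mutant library than in any wild type library, while the ratios of PtrPAL2 to PtrPAL4 and to PtrPAL3 overlap.

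As shares of the summed FPKM, PtrPAL3 held 20.9% ± 0.92 in the mutant and 25.0% ± 0.08 in the wild type (SD, n = 3 each). PtrPAL2 held 5.24% ± 0.67 in the mutant and 6.36% ± 0.22 in the wild type, and PtrPAL4 held 2.43% ± 0.28 in the mutant and 2.87% ± 0.14 in the wild type. The shares of PtrPAL1, PtrPAL2, PtrPAL3 and PtrPAL4 did not overlap between genotypes (two-sided exact permutation p = 0.1, adjusted over the 5 shares 0.125), and that of PtrPAL5, 0.901% ± 0.05 in the mutant and 0.836% ± 0.03 in the wild type, did (p = 0.2, exact permutation test). A p of 0.1 is the smallest this design allows, so no share could pass the threshold. Values without overlap were also common over the table, at 67.3% of tested genes for the FPKM of single genes. Shares sum to a fixed whole, so the larger share of PtrPAL1 and the smaller shares of PtrPAL2, PtrPAL3 and PtrPAL4 are not separate observations. The subfamily of PtrPAL2, PtrPAL4 and PtrPAL5 summed to 42.8, 45.4 and 44.2 FPKM in the mutant libraries, against 52.9, 52.5 and 52.5 FPKM in the wild type libraries. These sums did not overlap (two-sided exact permutation p = 0.1). PtrPAL1 and PtrPAL3 together summed to 504.2, 425.9 and 491.9 FPKM in the mutant libraries, against 454.2, 473.4 and 482.8 FPKM in the wild type libraries, and overlapped (two-sided exact permutation p = 0.9). PtrPAL2 was the largest part of the former sum and PtrPAL1 of the latter. The sums thus largely restate those members and do not show a difference between the subfamilies.

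The sum of the family hid these differences. It was 547.0, 471.2 and 536.1 FPKM in the mutant libraries, against 507.1, 525.8 and 535.2 FPKM in the wild type libraries, and the groups overlapped. The mean sum was 518.1 ± 41.0 FPKM in the mutant and 522.7 ± 14.3 FPKM in the wild type (SD, n = 3 each). On the log2 sums the two-sided exact permutation test gave p = 1. With TMM-scaled FPKM the sum was 496.5 ± 38.1 in the mutant and 545.4 ± 14.6 in the wild type, 0.910 of the wild type mean, with no overlap (two-sided exact permutation p = 0.1). The family took 0.163%, 0.140% and 0.160% of all counts in the mutant libraries and 0.151%, 0.156% and 0.159% in the wild type libraries. On the TMM scale the largest part of the lower sum was PtrPAL3, with 103.5 FPKM in the mutant and 136.2 FPKM in the wild type. On that scale PtrPAL2 fell by 8.84 FPKM and PtrPAL4 fell by 3.67 FPKM, both from lower levels than PtrPAL3. The mean of PtrPAL1 was 350.7 ± 35.2 FPKM in the mutant and 354.4 ± 11.6 FPKM in the wild type (SD, n = 3 each). That difference was about as large as for PtrPAL4 but well within the spread of PtrPAL1. PtrPAL5 stood at 4.47 FPKM in the mutant and 4.56 FPKM in the wild type. In pooled stem tissue, fewer cells of a type and less RNA per cell cannot be told apart.

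Mutant libraries spread more than wild type libraries for 5 of 5 members, against 51.3% of tested genes. All members were read in the same 6 libraries, so these are not 5 separate observations. Over the tested genes the median coefficient of variation of the FPKM was 6.47% in the mutant and 6.09% in the wild type. The coefficient of variation of the FPKM of PtrPAL1 was 10.3% in the mutant and 3.35% in the wild type, while counting error alone would give 0.689% and 0.700%. For PtrPAL3 it was 5.04% in the mutant and 2.44% in the wild type, and for PtrPAL2 4.44% in the mutant and 0.722% in the wild type. The wild type value lay below counting error for PtrPAL2 (2.36%), for PtrPAL4 (2.20% against 3.32%) and for PtrPAL5 (6.45% against 6.76%), so the count over the members rests in part on wild type spreads smaller than counting would give on average. Mutant replicate 1 had the highest level of PtrPAL1 and PtrPAL5 and the lowest of PtrPAL2 and PtrPAL4 among the mutant libraries. Mutant replicate 2 had the lowest level of PtrPAL1, PtrPAL3 and PtrPAL5 and the highest of PtrPAL2. With 3 libraries per genotype the difference in spread was not tested.

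The members lay apart in the genome numbering except for the pair on chromosome 10, and called genes around them lay in both directions. Among the 20 nearest tested genes by identifier order, 10 on each side, PtrPAL2 had 7 called higher and 7 called lower, with a median log2 fold change of -0.01. Around PtrPAL3, 7 were called higher and 8 lower (median 0.00), and around PtrPAL4, with PtrPAL5 among its neighbours, 7 were called higher and 5 lower (median 0.00). Around PtrPAL1, 9 were called higher and 5 lower (median 0.07). Around PtrPAL5, with PtrPAL4 among its neighbours, 8 were called higher and 6 lower (median 0.07). Over all tested genes 64.1% were called, 33.1% as higher and 31.0% as lower. That identifier order holds in the hybrid clone was not checked.

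The family sum over the 6 libraries was set beside the profiles of single genes. Of 13687 other genes above the median level, 2769 (20.2%) had a centred log2 CPM profile within a root mean square difference of 0.1 from it. The sum itself differed so little between libraries that a gene with a flat profile would also lie within that cutoff. The share therefore does not show how common the pattern of the sum was. The nearest genes were Potri.004G157400.v4.1 on chromosome 4, at a difference of 0.01, and Potri.014G180900.v4.1 on chromosome 14, at 0.02. Potri.004G157400.v4.1 had 42.7, 37.9 and 42.8 CPM in the mutant libraries, against 43.1, 44.8 and 45.9 CPM in the wild type libraries. It had no call (log2 fold change -0.12, adjusted p = 0.0602, edgeR).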

How the data were processed

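Per the labels' protocols, RNA of pooled stem bases was sequenced from standard Illumina libraries. The sources used here do not name the aligner, counter, genome build or strand setting. The deposited counts are raw, per the file headers. The deposited FPKM rest on library totals and 1 fixed length per gene, whole within 0.01 bp for 100% of 185484 values above 0, and lengths given are those. All 6 count and 6 FPKM columns matched 1 sample each by title, with 0 unused.

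The test on counts used edgeR 4.0.16 (R 4.3.3), with filterByExpr (minimum count 10, minimum total 15), TMM factors, glmQLFit with robust=TRUE and glmQLFTest on genotype with no block, and Benjamini-Hochberg adjustment over all 27382 tested genes. SEs follow from the F statistic, and intervals use its degrees of freedom. Sums, shares and ratios of FPKM were compared by two-sided exact permutation tests (scipy 1.17.1). The tests on counts were tried on simulated data in which only a small part of the genes was changed. Scaling with most genes changed was therefore not tried. The permutation test was tried on small cases with known answers. DESeq2 1.42.0 and limma 3.58.1 served as alternatives. Replicate pairs differed by more than counting noise (chi-square per gene of 2.32 to 2.62 in the mutant and 1.84 to 1.97 in the wild type), so each library counted once.

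The rule named all 5 members, the called and most abundant genes of the pathway lists, and the 2 genes nearest to the family sum. The lists covered phenylalanine supply, monolignol enzymes, laccases, flavonoid branch, PAL turnover, secondary wall, green tissue, phloem and BRI1. They were to be drawn from a reference of gene descriptions and matched by identifier. No such reference was at hand, so they matched 0 genes and were not tested. Members and lists were chosen with earlier results of these data known. Names of members follow the rule that chose them. Subfamily sums were added after the data were seen. No sequences are shown, as no reference was used.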

Additional observations from a re-analysis of the deposited data

How the results depend on the processing

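PtrPAL2, PtrPAL3 and PtrPAL4 stayed lower and called under 18 alternatives each, with log2 fold changes of -0.47 to -0.29, -0.44 to -0.27 and -0.43 to -0.25 and adjusted p up to 0.000195, 0.000301 and 0.00953. Leaving out 1 library gave -0.47 to -0.40, -0.44 to -0.36 and -0.43 to -0.34. PtrPAL1 and PtrPAL5 had no call under any of 18, but their sign turned: with library totals they stood at 0.11 and 0.095, with limma on log2(FPKM + 1) at 0.10 and 0.076, and with limma on log2(FPKM + 0.1) at 0.10 and 0.091. Leaving out 1 library gave -0.075 to 0.060 for PtrPAL1 and -0.10 to 0.014 for PtrPAL5, positive for both without mutant replicate 2 (0.060 and 0.010) or wild type replicate 3 (0.0029 and 0.014). Library totals move all genes alike. The pseudocount does not, and the cause of the other turns was not tested.

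The log2 ratio of the family sum was -0.016 with FPKM, -0.14 with TMM-scaled FPKM, 0.019 with TPM and -0.056 to 0.051 without 1 library, turning without mutant replicate 2 (0.051) and wild type replicate 3 (0.0018). Of the pairs, the 6 that did not overlap cannot turn when 1 library is left out, so their direction there is no sign of stability. The other 4 turned without single libraries: PtrPAL1/PtrPAL5 ranged from -0.040 to 0.051, PtrPAL2/PtrPAL3 from -0.10 to 0.015, PtrPAL2/PtrPAL4 from -0.062 to 0.0074 and PtrPAL3/PtrPAL4 from -0.065 to 0.041. All shares kept their direction, but those of PtrPAL1 to PtrPAL4 did not overlap and so could not turn when 1 library was left out. The share of PtrPAL5 overlapped, and without 1 library it differed by 0.0485 to 0.0957 percentage points. TMM scaling and TPM leave ratios and shares as they are by construction, and count sums and the block leave the differences of log2 ratios as they are.

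The count of called genes was 17558, and 16606 to 17114 without 1 library. Asking for more than a 1.2-fold difference left 10795, fewer by construction. Of calls, 51.6% were higher with TMM factors and 66.8% with library totals. Same-numbered libraries share only a number: their deviations correlated at -0.07 to -0.01, and none (0 of 6) was closest to the library with its number. The replicate block gave 17334 called genes, and the log2 fold changes were -0.02, -0.43, -0.40, -0.39 and -0.03 for PtrPAL1 to PtrPAL5, with no call changed. Blocked differences of sums, shares and ratios had the same means, with an exact p of at least 0.25. The pathway lists could not be run under any alternative.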
